A study of Mus musculus with 50 samples.

Results

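The comparison described here set granulocyte-monocyte progenitors (GMP) of Flt3-mutant mice at the 2-week time point against the same sorted population at 4 weeks. Libraries were assigned by their titles and by the matching column names of the deposited count table, which gave 3 libraries at 2 weeks and 3 at 4 weeks, 6 of the 50 libraries in the series. The study sorted GMP, LSK cells (lineage-negative, Sca1-positive, Kit-positive stem and progenitor cells) and, for 1 experiment, lineage-negative progenitors from mouse models that carry a Flt3 mutation alone or together with Npm1 or Dnmt3a mutations. Bulk RNA was counted per gene. All animals of the 2-week and the 4-week group have the genotype label Flt3, so the activated Flt3 mutation is shared by both groups, which the labels tell apart by time point alone. The labels name Cre, Dre and Flp as the recombinases that activated the mutations, without saying which served the Flt3 mice or what drove it, and they give neither the Flt3 allele nor the age, the strain or the event from which weeks were counted. The other groups used here were Flt3 GMP at 6 weeks (3 libraries) and 8 weeks (3, of which 1 held 1942 counts and was left out), WT GMP at 4 weeks (3), and LSK of Flt3 mice at 2 and 4 weeks (3 each). The sample codes of the WT animals come from another code series than those of the Flt3 animals, so the genotype cannot be told apart from whatever the code series stands for, and no WT library of 2 weeks was used here. No label says in words that the 3 libraries of a group came from 3 animals, although their codes carry different numbers, so p-values measure the spread between these libraries.

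Flt3 is a receptor tyrosine kinase of early blood progenitors and dendritic cell precursors, and activating mutations of it are frequent in acute myeloid leukaemia. GMP give rise to neutrophils and monocytes, and the same marrow compartment holds the precursors of basophils, mast cells and eosinophils. Basophils carry the high-affinity IgE receptor, store histamine and granule proteases, and depend on the transcription factor Gata2. Early response genes such as Fos and Egr1 are transcribed within minutes of signalling through the MAP kinase pathway and also after handling stress.

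At 2 weeks the GMP libraries had high levels of basophil, eosinophil, MHC class II, dendritic cell and early response genes, and lower levels of Socs2, Csf1r and many genes of DNA replication and ribosome production. In edgeR's quasi-likelihood test with Benjamini-Hochberg adjustment, 1572 of 9602 genes differed between 2 and 4 weeks at an adjusted p under 0.05 (16.4%), 1009 of them higher at 2 weeks (10.5%) and 563 lower (5.86%). The 10.5% and 5.86% are the shares to set beside each count of list genes higher or lower in this comparison. The median log2 fold change over all genes tested was 0.0167. Levels are given as CPM, the share of a library's total counts after TMM scaling (a correction for a few very abundant genes) in the usual unit, and a gene is called higher or lower only where it passed that test. Log2 fold changes are printed with their standard errors.

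Total counts were 624296 to 8249135 at 2 weeks and 572370 to 951622 at 4 weeks, so the depth of the 2 groups overlapped but 1 library at 2 weeks was far deeper than the rest. The 10 most abundant genes took 15.5 to 19.9% of counts at 2 weeks and 6.98 to 7.44% at 4 weeks. Flt3 itself had 122, 173 and 155 CPM at 2 weeks and 116, 119.9 and 142 CPM at 4 weeks, a log2 difference of 0.23 ± 0.18 (adjusted p = 0.428), against 18.4, 27.6 and 29.9 CPM in WT, to which the 2-week libraries differed by 2.51 ± 0.20 (adjusted p = 7.08e-12). The summed level of 5 GMP genes (Mpo, Elane, Ctsg, Fcgr3 and Kit) was 16910 to 26310 CPM at 2 weeks and 22410 to 28030 CPM at 4 weeks. That of 4 stem cell genes which GMP should lack (Ly6a, Hlf, Mecom and Procr) was 10.3 to 23.9 and 13.2 to 26.9 CPM, so neither sum set the groups apart. The sum of the GMP genes mostly follows Mpo, with means of 18230 CPM at 2 weeks and 22500 CPM at 4 weeks, and says little about the others. Of 2 surface markers commonly used to recognise GMP, Fcgr3 (CD16) was higher at 2 weeks (553, 393 and 409 against 165, 94.1 and 67.2 CPM, log2 fold change 2.11 ± 0.25) and Cd34 was lower (358, 163 and 302 against 633, 674 and 728 CPM, log2 fold change -1.26 ± 0.17). Their part in the composition of the gate was not tested. In sorted bulk libraries more cells of a type and more RNA per cell cannot be told apart.

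The upstream sequences of genes that carry the basophil pattern are shown first. They were searched for a GATA motif, which the factors encoded by Gata2 and Gata1 recognise. The windows hold up to 150 bases before the RefSeq gene start in build GRCm38.p6 (the coordinates of mm10), 5′ to 3′ on the gene's strand. Capitals mark AGATAA or TGATAA, the letters searched for on both strands. Mcpt8 (chr14:56085274-56085347, minus strand) is cut at 74 bases, because GENCODE counts the remaining 76 as part of the gene. Prss34 lies at chr17:25298244-25298393, plus strand, Cd200r3 at chr16:44943528-44943677, plus strand, Fcer1a at chr1:173227230-173227379, minus strand, Ms4a2 at chr19:11623720-11623869, minus strand and Cpa3 at chr3:20242182-20242331, minus strand.
Mcpt8: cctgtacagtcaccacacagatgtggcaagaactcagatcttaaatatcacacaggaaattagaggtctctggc
Prss34: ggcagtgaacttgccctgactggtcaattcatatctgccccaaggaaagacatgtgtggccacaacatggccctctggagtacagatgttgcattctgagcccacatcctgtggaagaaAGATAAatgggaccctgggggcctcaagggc
Cd200r3: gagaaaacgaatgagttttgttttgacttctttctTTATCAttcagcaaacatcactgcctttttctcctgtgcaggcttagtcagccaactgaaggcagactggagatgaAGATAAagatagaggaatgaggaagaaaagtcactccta
Fcer1a: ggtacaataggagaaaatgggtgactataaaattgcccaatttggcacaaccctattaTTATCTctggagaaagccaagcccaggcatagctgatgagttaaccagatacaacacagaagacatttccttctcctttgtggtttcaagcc
Ms4a2: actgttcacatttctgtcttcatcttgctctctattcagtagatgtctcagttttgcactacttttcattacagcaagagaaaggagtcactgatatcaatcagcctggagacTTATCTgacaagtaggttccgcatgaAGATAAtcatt
Cpa3: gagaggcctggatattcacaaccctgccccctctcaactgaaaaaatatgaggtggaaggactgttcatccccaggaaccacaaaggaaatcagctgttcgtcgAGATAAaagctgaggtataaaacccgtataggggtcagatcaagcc

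The motif began 31 bases before the start in Prss34, 46 in Cpa3, 92 in Fcer1a, 115 and 39 in Cd200r3 and 37 and 11 in Ms4a2. No match lay in the shortened Mcpt8 window. Over the lists of basophil, mast cell and eosinophil genes, 17 of 36 promoters found in the RefSeq table held it (47.2%), against 2677 of 27025 promoters of all genes (9.91%). For the members of these lists that were tested in GMP it was 9 of 22 (40.9%). All shares use full windows of 150 bases, also for genes whose printed window is shortened. Among genes tested in GMP the share was 280 of 6808 (4.11%), and it was 54 of 702 for genes higher at 2 weeks (7.69%) and 11 of 421 for genes lower at 2 weeks (2.61%). These matches describe letters in a window and were not tested as binding sites. Members of the lists are among the genes higher at 2 weeks. The lists were chosen with earlier results of these data known, so the shares are descriptions. Whether Gata2 or Gata1 acts on these genes was not tested.

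Basophil genes had the highest median log2 fold change of the 28 lists with at least 5 tested genes. Of 20 genes on the basophil list 17 passed the filter on low counts, and 16 of these 17 were higher at 2 weeks (10.5% of all genes were), none lower, with a median log2 fold change of 4.03 against 0.0167 over all genes. Members such as Cd200r3, Il4 and Il6, at or near 0 in the 4-week libraries, passed that filter through their 2-week counts, so the count and the median are descriptions. Members of other lists, such as Ciita, Clec9a, Alox15, Hs3st1 and Atf3, did so too, and the same limit holds for their lists. For none of the 16 did the 2-week and 4-week libraries overlap. That is usual for a called gene, as 1531 of all 1572 called genes did not overlap. Of all 9602 genes tested, called or not, 3218 did not overlap (33.5%). Together the 20 genes took 5.62 to 6.94% of all counts in each 2-week library and 0.0822 to 0.107% in each 4-week library. Most of the 2-week share came from Prss34 and Mcpt8, with means of 46090 and 25210 CPM.

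Mcpt8 encodes mast cell protease 8, a serine protease which in spite of its name is made by basophils. It had 23670, 27950 and 24010 CPM in the 2-week libraries and 358, 339 and 268 CPM in the 4-week libraries, a log2 fold change of 6.30 ± 0.17 (adjusted p = 1.07e-24). The lowest 2-week library was far above the highest 4-week library, and the 3 libraries of each group lay close together. Prss34 encodes mast cell protease 11, another basophil protease. Its levels were 46960, 55290 and 36020 CPM at 2 weeks and 383, 342 and 202 CPM at 4 weeks, a log2 fold change of 7.23 ± 0.37 (adjusted p = 1.62e-07). By counts that are not scaled for gene length, Prss34 was the most abundant gene of all at 2 weeks and ranked 599 at 4 weeks, and Mcpt8 ranked 4 and 564.

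Cd200r3, an activating receptor of basophils and mast cells, had 409, 391 and 353 CPM at 2 weeks and 0, 0 and 2.84 CPM at 4 weeks (log2 fold change 8.27 ± 0.46). Fcer1a, the IgE-binding alpha chain of the high-affinity IgE receptor, had 1017, 1076 and 1390 CPM against 18.2, 7.84 and 13.2 CPM (log2 fold change 6.52 ± 0.26). Ms4a2, the beta chain of that receptor, had 336, 367 and 336 CPM against 23.1, 12.3 and 16.1 CPM (log2 fold change 4.37 ± 0.35). For all 3 genes the groups were apart, and Cd200r3 had no count in 2 of the 4-week libraries. Hdc, which encodes the enzyme that makes histamine, was higher by a smaller step, from 85.1 to 130.5 CPM at 4 weeks to 339 to 566 CPM at 2 weeks (log2 fold change 2.25 ± 0.18), and its WT levels of 358 to 435 CPM overlapped those of 2 weeks.

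**Figure D1:**
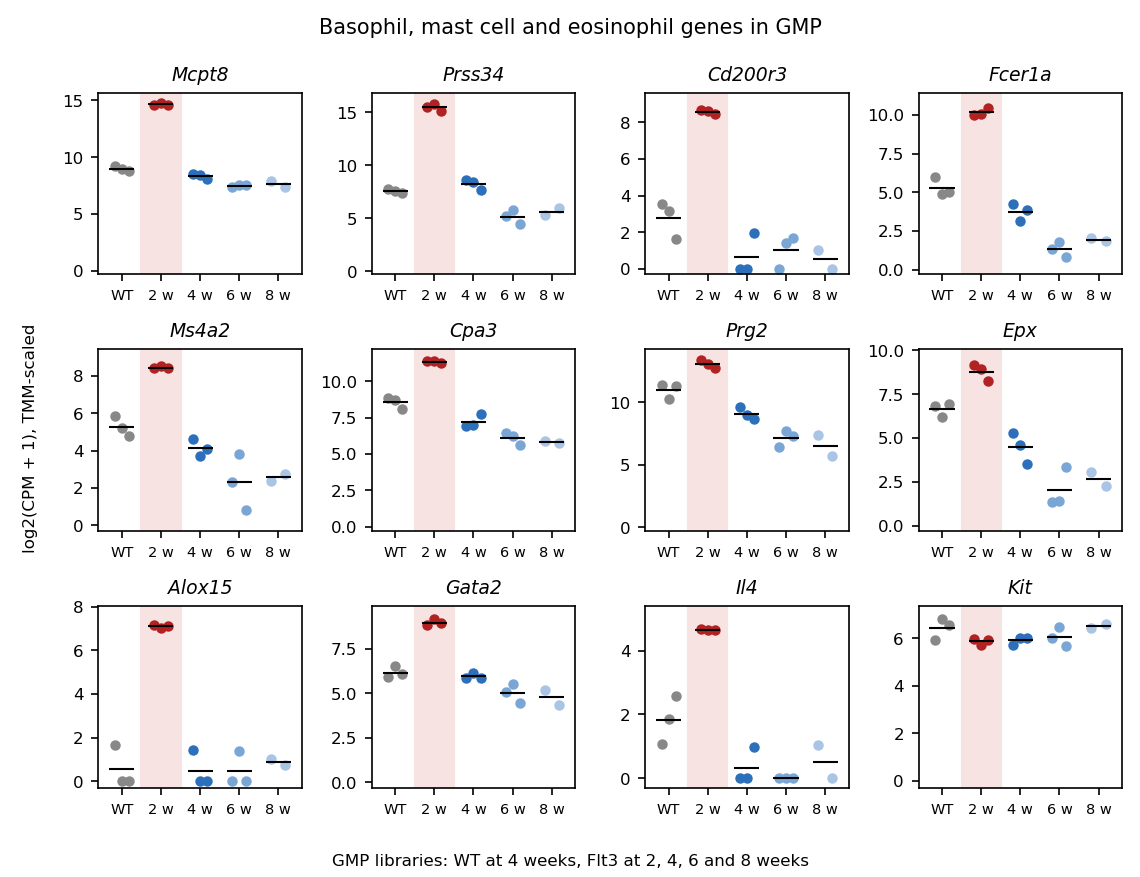
Levels of 12 genes of basophils, mast cells and eosinophils in each GMP library, as log2(CPM + 1) on TMM-scaled totals (vertical axis), by group (horizontal axis: WT at 4 weeks, then Flt3 at 2, 4, 6 and 8 weeks). Points are libraries and bars are group means. In the shaded 2-week group every gene except Kit lies above all other Flt3 groups.

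Genes of secreted products and receptors on the basophil list followed, and which cells made them was not tested. Il4, the cytokine that drives type 2 immunity, had 24.3, 23.9 and 24.1 CPM at 2 weeks and 0, 0 and 0.946 CPM at 4 weeks (log2 fold change 5.71 ± 0.93). Il6 had 26.3, 12.0 and 29.6 CPM at 2 weeks and no count at 4, 6 or 8 weeks, so that it was at least 24-fold higher at 2 than at 4 weeks when 3 counts over the 4-week group are taken as the floor. The chemokine genes Ccl3 and Ccl4 were higher by 4.03 ± 0.50 and 3.49 ± 0.42, and Csf1, the macrophage growth factor gene, by 3.25 ± 0.45. Osm (oncostatin M) was higher by 1.74 ± 0.46, with an adjusted p of 0.0682 without 4-week replicate 2. Il1rl1, the receptor for interleukin-33, was higher by 2.65 ± 0.76, with an adjusted p of 0.0568 without 4-week replicate 1 and 0.0746 without 4-week replicate 2. Il3ra, the alpha chain of the interleukin-3 receptor, was the 1 tested basophil gene that did not pass, with 16.4, 17.9 and 5.90 CPM at 2 weeks and 9.91, 8.96 and 7.57 CPM at 4 weeks. The beta chain genes Csf2rb and Csf2rb2, which share reads as near-identical neighbours and are therefore uncertain apart, were higher by 1.28 ± 0.21 and 2.52 ± 0.48.

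The signalling chain below the IgE receptor moved only in parts. Of 16 genes on that list 15 were tested and 8 were higher at 2 weeks, none lower, with a median log2 fold change of 0.77. Besides the receptor chains Fcer1a and Ms4a2, the adaptor gene Lat was higher, with 96.0, 106 and 90.3 CPM at 2 weeks and 0, 5.60 and 9.46 CPM at 4 weeks (log2 fold change 4.06 ± 0.53). Fcer1g, the gamma chain shared with other Fc receptors, was higher by 1.17 ± 0.13 from an already high level of 669.6 to 874 CPM. The kinase genes Fyn and Lyn were higher by 1.50 ± 0.24 and 0.96 ± 0.23, the adaptor gene Lcp2 (SLP-76) by 0.71 ± 0.23 and the inhibitory phosphatase gene Inpp5d (SHIP1) by 0.66 ± 0.22. Sykb (the table's name for Syk), Btk and Plcg2, which act in many blood cells, had differences of -0.03, -0.02 and 0.19 and did not pass the test.

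Enzymes of leukotriene and related lipid synthesis showed 3 of 7 tested members higher and 1 lower. Alox15, a lipoxygenase gene of eosinophils and alternatively activated macrophages, had 143, 128 and 137 CPM at 2 weeks and 1.65, 0 and 0 CPM at 4 weeks (log2 fold change 8.18 ± 0.63). Alox5, the lipoxygenase that starts leukotriene synthesis, had 277, 293 and 256 CPM against 3.30, 12.3 and 7.57 CPM (log2 fold change 5.06 ± 0.33), and its activating protein gene Alox5ap was higher by 1.55 ± 0.15. All 3 were apart between the groups. Lta4h, the leukotriene A4 hydrolase, was lower, at -0.41 ± 0.14 (adjusted p = 0.0349), and did not pass in 6 of 17 alternative settings, where its adjusted p reached 0.209. Without 4-week replicate 2 the number of higher genes was 5.

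Mast cell and eosinophil genes divided by cell type. On the mast cell list only 5 of 16 genes were tested, Hs3st1 among them through its 2-week counts, and 4 of the 5 were higher. Cpa3, the carboxypeptidase shared by mast cells and basophils, had 2702, 2708 and 2480 CPM at 2 weeks and 119, 128 and 210 CPM at 4 weeks (log2 fold change 4.09 ± 0.25). Slc18a2, the vesicular monoamine transporter gene, was higher by 3.00 ± 0.48 and Gzmb (granzyme B) by 5.17 ± 0.93. Hs3st1 was higher by 2.82 ± 0.83, without passing when 4-week replicate 1 (adjusted p = 0.0635) or 2 (0.076) was left out. With all libraries thinned to the smallest total or with only the groups compared in the fit, 2 mast cell genes passed. The genes that define mast cells were near or at 0: Mcpt4, Tpsb2 and Mrgprb2 had no count in any 2-week or 4-week library, and Cma1 had 0 to 0.686 CPM at 2 weeks. Kit, the stem cell factor receptor that mast cells keep and basophils lose, did not differ beyond its spread (61.1, 51.8 and 60.8 CPM at 2 weeks, 51.2, 63.9 and 63.4 CPM at 4 weeks).

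Eosinophil granule genes were higher. Of 10 genes 7 were tested and 6 were higher, none lower, with a median log2 fold change of 3.95. Alox15 passed the filter on low counts through its 2-week counts, so count and median are descriptions. Prg2, which encodes major basic protein, had 10300, 8504 and 6727 CPM at 2 weeks and 775, 493 and 394 CPM at 4 weeks (log2 fold change 3.95 ± 0.52). Epx, eosinophil peroxidase, had 566, 482 and 304 CPM against 38.0, 23.5 and 10.4 CPM (log2 fold change 4.33 ± 0.44). Prg3, the homologue of Prg2, was higher by 3.50 ± 0.27, and the ribonuclease genes Ear2 and Ear6, whose near-identical copies may share reads, by 3.50 ± 0.65 and 4.27 ± 0.65. The sixth was Alox15, described above. In 5 of the 6 higher genes 2-week replicate 1 was the highest of the 3 libraries. Siglec5, the table's name for the Siglec-F gene, had 22.4, 5.98 and 14.3 CPM and 14.9, 7.84 and 5.67 CPM, which overlapped, and Il5ra and Ccr3, receptor genes of later eosinophils, stayed at or below 4.60 CPM and were not tested.

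Among 30 tested transcription factor genes of the blood lineages 8 were higher and 4 lower (10.5% and 5.86% of all genes were). Gata2, which basophils, mast cells and stem cells need, had 454, 568 and 485 CPM at 2 weeks and 57.8, 70.6 and 55.8 CPM at 4 weeks (log2 fold change 3.02 ± 0.21, adjusted p = 4.06e-12). Gata1, the factor of erythroid cells, megakaryocytes, eosinophils and mast cells, had 80.2, 73.7 and 51.3 CPM against 1.65, 5.60 and 6.62 CPM (log2 fold change 3.72 ± 0.42). For both genes the groups were far apart. Id2, an inhibitor of E proteins used by dendritic cells, was higher by 2.90 ± 0.47, and Id1 by 1.43 ± 0.25. Gfi1b, a repressor of erythroid and megakaryocyte precursors, was higher by 1.69 ± 0.47, and its myeloid relative Gfi1 by 0.80 ± 0.28. Runx1, a factor of all blood lineages, was higher by 0.79 ± 0.23, and Klf4, a monocyte factor, by 2.48 ± 0.67. The number of higher genes fell to 5 without 4-week replicate 3. Cebpa, the factor that GMP depend on, had 42.7, 35.9 and 30.9 CPM at 2 weeks and 26.4, 21.3 and 22.7 CPM at 4 weeks and did not pass (adjusted p = 0.194). Irf8, the factor of monocytes and dendritic cells, had 1449, 2714 and 1657 against 1098, 1316 and 1406 CPM and did not pass either (adjusted p = 0.0828). The 4 lower genes were Myc, Mycn, Myb and Lmo2, at -1.08, -2.56, -0.62 and -0.55.

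Early erythroid and megakaryocyte genes were also higher at 2 weeks. Of 20 erythroid genes 18 were in the table, 7 were tested and 5 were higher. Car1, carbonic anhydrase 1 of early erythroid cells, had 137, 173 and 106 CPM at 2 weeks and no count at 4 weeks, at least 98.1-fold higher against the floor of 3 counts over the group. Klf1, the erythroid Krüppel-like factor, had 28.9, 27.9 and 14.1 CPM against 0, 2.24 and 0 CPM (log2 fold change 4.71 ± 0.86). The WT libraries, at 91.8, 120.3 and 48.4 CPM for Car1 and 11.9, 19.3 and 43.4 CPM for Klf1, overlapped the 2-week libraries for both genes. The haemoglobin gene Hba-a1, which shares reads with its near-identical copy Hba-a2, had 17.1, 17.9 and 5.21 CPM against 0, 0 and 1.89 CPM (3.84 ± 1.13). Of 2 other genes of later red cells, Alas2 had no count at 2 weeks and Slc4a1 had 0 to 0.274 CPM. On the megakaryocyte list 6 of 12 tested genes were higher, among them Itga2b (integrin alpha IIb, 182, 237 and 191 against 8.26, 16.8 and 13.2 CPM, log2 fold change 3.92 ± 0.30), Cd9 (2.04 ± 0.16), Plek (1.68 ± 0.23), Pf4 (2.69 ± 0.57) and Vwf (3.82 ± 0.70). Gp5, a platelet glycoprotein gene with 3.29, 5.98 and 6.31 CPM at 2 weeks and no count at 4 weeks, was at least 4.94-fold higher. Gp9 and Gp1bb, of the platelet glycoprotein complex, did not pass, at 0.55 and 0.85. Itga2b, Cd9 and Gata2 are also expressed by basophils, and how much of their levels came from which cells was not tested.

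Genes of the neutrophil and monocyte path, the main output of GMP, changed in part. Of 14 tested primary granule genes 6 were higher and none lower, with a median of 0.34. Mpo, myeloperoxidase, had 22640, 14190 and 17870 CPM at 2 weeks and 25580, 20980 and 20940 CPM at 4 weeks, which overlapped (log2 fold change -0.30 ± 0.20, adjusted p = 0.352). Ms4a3, a marker of GMP descendants, was higher by 1.54 ± 0.26 and Nkg7, a granule membrane protein gene, by 1.03 ± 0.17. Ctsg, cathepsin G, was higher by 0.92 ± 0.23, a call that did not hold without 2-week replicate 1 or 3 or without 4-week replicate 2 or 3 (adjusted p between 0.0547 and 0.0875). The number of higher primary granule genes fell to 2 without 4-week replicate 3 and to 3 without 2-week replicate 1 or 3 or without 4-week replicate 2. Of 9 tested late neutrophil genes 3 were higher: S100a8 and S100a9, the calprotectin subunits, by 3.18 ± 0.64 and 5.02 ± 0.92, and 1100001G20Rik (Wfdc21), whose adjusted p was 0.053 without 4-week replicate 2. The levels of S100a8 were 51.3, 51.8 and 66.4 CPM at 2 weeks, 18.2, 1.12 and 3.78 CPM at 4 weeks and 392, 297 and 673 CPM in WT. The median of this list was 2.88 as fitted and 1.24 with Camp, which had no count at 4 weeks, set at its lower bound.

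Of 18 tested monocyte genes 8 were higher and 2 lower (10.5% and 5.86% of all genes were). Csf1r, the receptor for the macrophage growth factor, was lower, with 56.5, 27.9 and 45.8 CPM at 2 weeks and 150.3, 193 and 178 CPM at 4 weeks (log2 fold change -1.92 ± 0.21, adjusted p = 2.36e-08). Ms4a6c, a membrane protein gene of monocytes, was lower too, at -0.59 ± 0.15. Higher were the lysosomal genes Psap (1.56 ± 0.15), Ctss (1.43 ± 0.19), Cd68 (1.15 ± 0.17) and Lyz2 (0.84 ± 0.15), as well as Lgals3, Mpeg1, Ccr2 and Klf4. Ly6c2, the classical monocyte marker, had 394, 351 and 443 CPM against 837, 470.5 and 362 CPM and did not pass (adjusted p = 0.298). The list thus held genes that changed in opposite directions, and 7 of the 8 higher ones were highest in 2-week replicate 2.

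MHC class II and dendritic cell genes formed the second large group. The class II molecules present peptides to helper T cells, and their genes share upstream boxes, one of them an inverted CCAAT, on which the coactivator Ciita acts. To show this layout, the windows of 2 class II genes are printed with CCAAT, searched on both strands, in capitals. H2-Aa lies at chr17:34287824-34287973, minus strand, and H2-Eb1 at chr17:34305717-34305866, plus strand, both in RefSeq's GRCm38.p6.
H2-Aa: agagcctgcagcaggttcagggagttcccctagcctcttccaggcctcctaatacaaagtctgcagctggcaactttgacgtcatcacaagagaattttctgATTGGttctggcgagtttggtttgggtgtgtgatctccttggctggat
H2-Eb1: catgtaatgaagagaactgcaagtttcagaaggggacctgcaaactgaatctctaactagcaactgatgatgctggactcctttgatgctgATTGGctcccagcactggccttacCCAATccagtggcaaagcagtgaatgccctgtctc

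The motif began 48 bases before the start of H2-Aa and 59 and 35 bases before that of H2-Eb1, and 25.3% of the 27025 promoters hold it in a window of this length. Among genes tested in GMP the share was 29.3%, with 27.6% for genes higher at 2 weeks and 31.6% for genes lower. Of the 4 promoters found for H2 genes and Cd74 on the list, 3 held it. Of 22 genes on the list 19 were tested, 16 were higher at 2 weeks and none lower, with a median of 3.19. Members such as Ciita and Clec9a passed the filter on low counts through their 2-week counts, so count and median are descriptions. In each of 17 alternative settings the number of higher genes was 16. H2-Ab1 had 13360, 20010 and 12240 CPM at 2 weeks and 1161, 1427 and 1999 CPM at 4 weeks (log2 fold change 3.31 ± 0.47, adjusted p = 0.000903). H2-Aa had 5509, 8940 and 5993 CPM against 462, 616 and 702 CPM (log2 fold change 3.51 ± 0.56). Cd74, the invariant chain gene, had 1879, 5576 and 1753 CPM against 189.9, 253 and 249 CPM (log2 fold change 3.71 ± 0.71). The groups did not overlap for any of the 16 genes, as for 1531 of all 1572 called genes. The 2-week libraries differed among themselves: replicate 2 was the highest of the 3 for 15 of the 16.

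Genes of conventional type 1 dendritic cells were part of this group. Xcr1, the chemokine receptor of these cells, had 204, 305 and 244 CPM at 2 weeks and 6.61, 14.6 and 12.3 CPM at 4 weeks (log2 fold change 4.41 ± 0.54). Batf3, the factor they need, had 98.6, 237 and 148 CPM against 23.1, 13.4 and 47.3 CPM (log2 fold change 2.43 ± 0.36), and Clec9a, their receptor for dead cells, 46.0, 51.8 and 50.2 against 4.96, 6.72 and 0.946 CPM (3.60 ± 0.55). Cd209a, found on type 2 dendritic cells and monocyte-derived cells, was higher by 3.11 ± 0.44, and Zbtb46, a factor of conventional dendritic cells, by 2.95 ± 0.64. Ciita, the class II transactivator, was higher by 3.35 ± 0.56. Of genes that plasmacytoid dendritic cells express, Tcf4 and Bst2 had differences of -0.51 and -0.17 that did not pass. Siglech had 0 to 1.99 CPM at 2 weeks. Ccr9, another of them, went the other way at low level, with 5, 4 and 38 counts at 2 weeks and 0, 0 and 1 at 4 weeks. Cst3, a cystatin gene that dendritic cells express strongly, was the third most abundant gene at 2 weeks by counts (mean 32960 CPM against 5619 CPM, log2 fold change 2.55 ± 0.28). It was added after its value was seen.

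**Figure D2:**
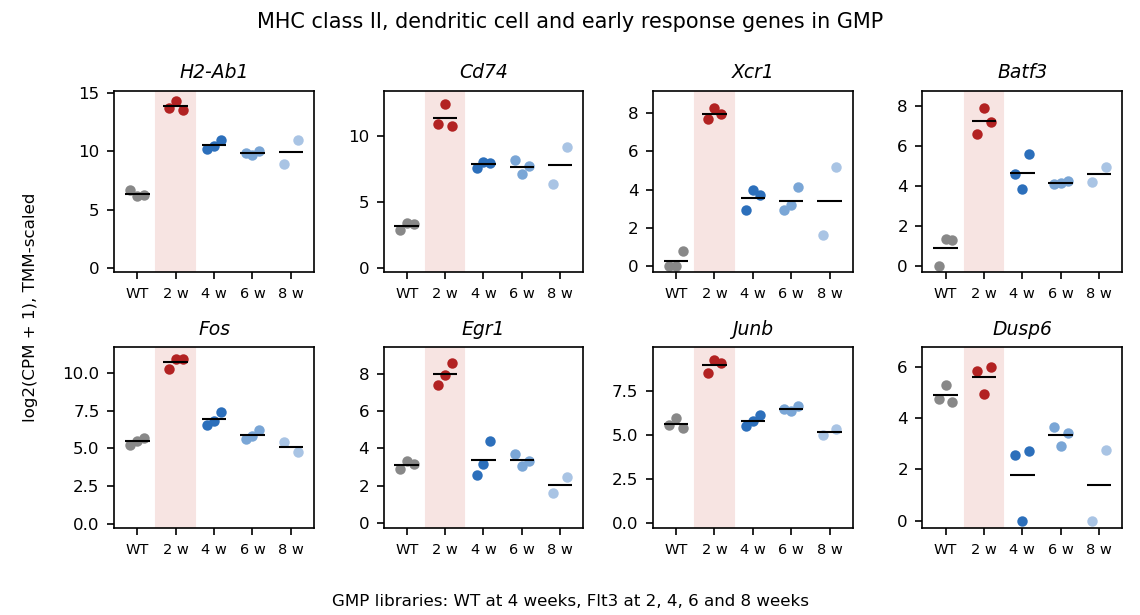
Levels of 4 MHC class II and dendritic cell genes and 4 early response genes in each GMP library, as log2(CPM + 1) on TMM-scaled totals (vertical axis), by group (horizontal axis: WT at 4 weeks, then Flt3 at 2, 4, 6 and 8 weeks). Points are libraries and bars are group means. For H2-Ab1 and Cd74 the WT libraries are lowest, the later Flt3 groups lie between and the 2-week libraries are highest.

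Early response genes made up the third group. Of 27 listed genes 18 were tested, and 15 were higher and 1 lower, with a median of 2.86. Members such as Atf3 passed the filter on low counts through their 2-week counts, so count and median are descriptions. Fos, a subunit of the AP-1 factor, had 1228, 1937 and 1935 CPM at 2 weeks and 94.1, 109.8 and 167 CPM at 4 weeks (log2 fold change 3.75 ± 0.23, adjusted p = 6.19e-10). Egr1, a zinc finger factor, had 167, 245 and 389 CPM against 4.96, 7.84 and 19.9 CPM (log2 fold change 4.50 ± 0.35). Junb had 367, 619.8 and 542 CPM against 44.6, 53.8 and 69.0 CPM (3.15 ± 0.20), and Klf2, a quiescence and trafficking factor, 341, 540.1 and 472 against 24.8, 29.1 and 34.0 CPM (3.90 ± 0.24). No 2-week library overlapped a 4-week library for any of the 15, as for 1531 of all 1572 called genes. Dusp6, a phosphatase gene that ERK signalling switches on and that limits ERK, was higher by 3.87 ± 0.55, and Dusp1 by 2.74 ± 0.32. Dusp5, another ERK phosphatase gene, was the 1 lower gene, at 33.5, 49.8 and 40.9 CPM against 71.0, 109.8 and 70.0 CPM (-1.06 ± 0.24). Spry2 and Spred1, further feedback inhibitors, did not pass, at 2.03 and -0.78.

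Among 11 tested heat shock genes 2 were higher and 5 lower (10.5% and 5.86% of all genes were). The stress-inducible pair Hspa1a and Hspa1b, near-identical copies that cannot be separated with certainty, were higher by 4.08 ± 0.74 and 3.18 ± 0.88, with Hspa1a at 486, 727 and 722 CPM against 62.8, 29.1 and 28.4 CPM. The 5 lower genes were Hsph1 (log2 fold change -1.19 ± 0.25), the mitochondrial chaperonin genes Hspd1 (-0.64 ± 0.16) and Hspe1 (-0.49 ± 0.16), and the cytosolic chaperone genes Hspa8 (-0.50 ± 0.14) and Hsp90ab1 (-0.43 ± 0.12). Hspa8 did not pass without 4-week replicate 2 (adjusted p = 0.124), and the number of lower genes fell to 3 without 4-week replicate 1 or 2. Dnajb1 and Hsp90aa1, which heat shock also induces, did not pass, at 0.14 and 0.33. Fos, Egr1 and Hspa1a can also respond to sorting and dissociation, and the labels give no sorting dates. Their part in the difference was not tested.

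**Figure D3:**
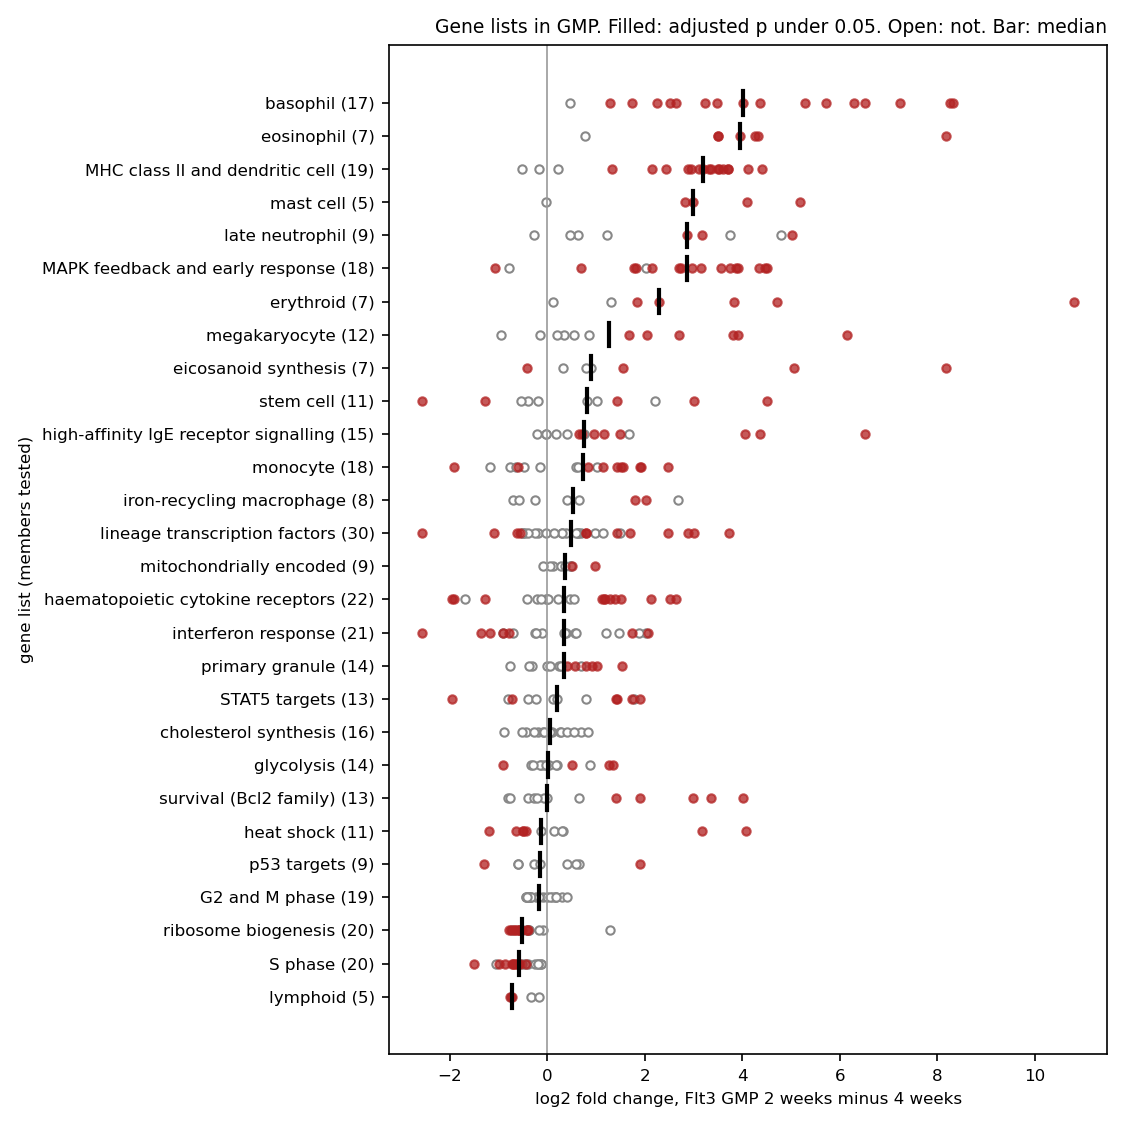
Log2 fold changes of Flt3 GMP at 2 weeks minus 4 weeks (horizontal axis) for the tested members of 28 gene lists with 5 or more tested members (vertical axis, number of members in parentheses), ordered by median. Filled points passed at an adjusted p under 0.05, open points did not, and bars are list medians. Car1, Il6, Gp5 and Camp had no count at 4 weeks, so that their fitted values depend on the prior count. The basophil, eosinophil and MHC class II and dendritic cell lists lie highest, and the S phase, ribosome biogenesis and lymphoid lists lowest.

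The genes lower at 2 weeks formed a different set. Socs2, a feedback inhibitor of cytokine signalling that STAT5 switches on, had 117, 102 and 137 CPM at 2 weeks and 451, 494 and 467 CPM at 4 weeks (log2 fold change -1.95 ± 0.15, adjusted p = 6.67e-12). Its WT levels were 2.16, 0.521 and 1.42 CPM, so the 2-week libraries lay between WT and 4 weeks and overlapped neither. Epb4.1l4b, a gene of the band 4.1 cytoskeletal family, had 14.5, 12.0 and 20.9 CPM at 2 weeks, 130.5, 82.9 and 100.3 CPM at 4 weeks and 4.32, 6.25 and 9.97 CPM in WT (log2 fold change to 4 weeks -2.55 ± 0.26). Il6st, the shared receptor chain of the interleukin-6 family, had 5.92, 3.99 and 21.7 CPM against 61.1, 63.9 and 40.7 CPM (-1.94 ± 0.36). The other 8 of the 12 largest falls were Itgb5 (-2.62 ± 0.50), Cnnm4 (-2.04), Maged1 (-1.99), Tmem108 (-1.97), S1pr3 (-1.83), Kcng1 (-1.83), Fam84b (-1.81) and Cbx2 (-1.76), beside Csf1r. All were apart between the groups, as the rule that chose them requires, and Cbx2 did not pass without 4-week replicate 2 (adjusted p = 0.0543).

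STAT5 target genes did not move as one. Of 13 tested genes 4 were higher and 2 lower: Mcl1 (1.42 ± 0.21), Id1, Osm and Bcl6 (1.91 ± 0.61) were higher, and Socs2 and Ccnd2 (-0.73 ± 0.22) lower. Cish, which like Socs2 was far above WT (log2 fold change 4.79 ± 0.64 from WT), had 15.8, 35.9 and 20.3 CPM at 2 weeks and 11.6, 23.5 and 37.8 CPM at 4 weeks and did not pass. Pim1 had 17.7, 21.9 and 35.1 CPM against 16.5, 20.2 and 34.0 CPM and did not pass. Stat5a and Stat5b themselves differed by -0.24 and -0.40 without passing.

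Genes of replication and ribosome production were lower by small steps. Of 20 S phase genes all were tested, 11 were lower (5.86% of all genes were) and none higher, with a median of -0.58. Mcm2, of the replicative helicase, had 207, 173 and 231 CPM at 2 weeks and 373, 340.5 and 416 CPM at 4 weeks (-0.86 ± 0.14), and all 6 genes of that helicase, Mcm2 to Mcm7, were lower. Uhrf1, which keeps DNA methylation through replication, had a log2 fold change of -0.98 ± 0.19, and Rrm1, a subunit of ribonucleotide reductase, one of -0.68 ± 0.14. Over 17 alternative settings the number of lower S phase genes was 8 to 12. Tyms and Dut did not pass, at -0.13 and -0.18. None of 19 tested G2 and M phase genes passed edgeR's test in either direction (5 had an unadjusted p under 0.05, and DESeq2 called 0), with a median of -0.17. Of 20 ribosome biogenesis genes 10 were lower and none higher, with a median of -0.52, among them Dkc1 (-0.67 ± 0.13), Npm1 (-0.57 ± 0.14) and Ncl (-0.42 ± 0.12). That count fell to 5 without 4-week replicate 2 and to 6 without 4-week replicate 1 or 2-week replicate 2. Myc, a driver of both programmes, had 547, 371 and 518 CPM at 2 weeks and 1032, 905 and 1133 CPM at 4 weeks (-1.08 ± 0.15, adjusted p = 1.48e-06).

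**Figure D4:**
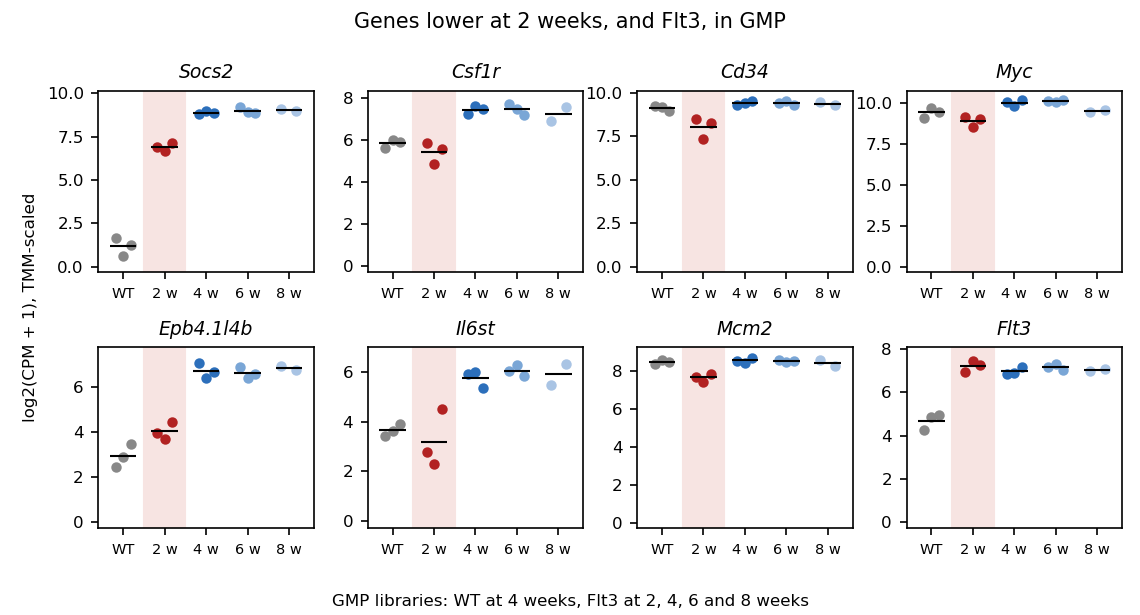
Levels of 7 genes that were lower at 2 than at 4 weeks, and of Flt3, in each GMP library, as log2(CPM + 1) on TMM-scaled totals (vertical axis), by group (horizontal axis: WT at 4 weeks, then Flt3 at 2, 4, 6 and 8 weeks). Points are libraries and bars are group means. The 2-week points lie below all later Flt3 points for the 7 genes, and Socs2 at 2 weeks lies between WT and the later times.

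Of 22 tested cytokine receptor genes 9 were higher and 3 lower (10.5% and 5.86% of all genes were). Besides the receptor chains named above, Csf2ra (1.38 ± 0.30), Il18rap (2.13 ± 0.50), Il2rg (1.19 ± 0.19), Ifngr1 (1.12 ± 0.15), Crlf2, which binds TSLP (1.16 ± 0.31), and Ccr2 (1.51 ± 0.31) were higher. Lower were Csf1r, Il6st and Il4ra (-1.28 ± 0.32). Csf3r, the receptor for the neutrophil growth factor, had 38.8, 47.8 and 39.2 CPM against 54.5, 44.8 and 27.4 CPM and did not pass.

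On the interferon response list 2 of 21 tested genes were higher and 5 lower (10.5% and 5.86% of all genes were). Ifitm3 and Ifitm1, membrane proteins that block virus entry, were lower, at -1.17 ± 0.15 and -1.36 ± 0.37, and so were Gbp3, a guanylate-binding protein (-0.90 ± 0.17), and Igtp, an immunity-related GTPase (-0.78 ± 0.23). Mx1 (2.07 ± 0.55) and Zbp1 (1.73 ± 0.56) were higher. Ifi44, also lower, did not pass without 2-week replicate 1 or 4-week replicate 3 (adjusted p = 0.0658 and 0.257), and the number of lower genes fell to 3 and 2 in these 2 settings. Mx1 did not pass after thinning (adjusted p = 0.0633). Over the 17 alternative settings 0 to 4 interferon response genes were higher, so in at least 1 of them neither Mx1 nor Zbp1 was called. Of 13 tested Bcl2 family genes 5 were higher and none lower: Bcl2a1a, Bcl2a1b and Bcl2a1d, near-identical copies that protect granulocytes and dendritic cells, by 4.02, 2.99 and 3.35, Mcl1 by 1.42 and Pmaip1 by 1.91. Each of these 5 was highest in 2-week replicate 2. Bcl2 had 60.5, 89.7 and 71.8 CPM at 2 weeks and 94.1, 98.6 and 88.9 CPM at 4 weeks and did not pass.

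The 12 largest rises among abundant genes, besides Car1, Cd200r3, Alox15, Prss34, Fcer1a and Mcpt8, were Gp49a, Gpr34, Rab19, Rgs1, Lilrb4 and Cdh1. Gp49a and Lilrb4, neighbouring genes of inhibitory and activating leukocyte receptors with very similar sequences, had 87.4, 154 and 121 CPM and 50.6, 73.7 and 67.8 CPM at 2 weeks. Gp49a had no count at 4 weeks and was at least 99.8-fold higher, and Lilrb4 had 1.65, 1.12 and 1.89 CPM at 4 weeks. Gpr34, a lysophosphatidylserine receptor, was higher by 7.10 ± 0.74, the trafficking GTPase gene Rab19 by 6.96 ± 0.81, Rgs1, which dampens chemokine receptor signalling, by 5.94 ± 0.65 and Cdh1 (E-cadherin) by 5.08 ± 0.54. At 4 weeks Gpr34 had 1, 0 and 0 counts, Rab19 0, 1 and 0, Rgs1 0, 2 and 1 and Cdh1 2, 3 and 1, so the sizes of these rises are uncertain. Over the alternative settings Gpr34 ranged from 6.43 to 9.8 and Rab19 from 6.3 to 9.64. Both passed the filter on low counts through their 2-week counts. All 12 were apart between the groups, as the rule that chose them requires.

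The 2-week libraries were also set against the later Flt3 GMP. With the mean of 6 and 8 weeks as the reference, which shares the 2-week libraries with the comparison above, 2213 of 9602 genes differed (23%), 1371 higher (14.3%) and 842 lower (8.77%). Basophil genes were 16 of 17 higher, eosinophil genes 7 of 7 and class II and dendritic cell genes 16 of 19, with 1 lower. Mcpt8 had 159.8 to 233 CPM over the 5 libraries of 6 and 8 weeks and Prss34 20.9 to 59.4 CPM, each below every 4-week library. Fcer1a had 0.747 to 3.11 CPM there, also below the 4-week range of 7.84 to 18.2 CPM. The difference between 4 weeks and the later times was not tested. The order of the means was 2 weeks, then 4 weeks, then 6 and 8 weeks for 11 of the 16 higher basophil genes. How often this order holds over all genes was not counted. Socs2 had 459.6 to 594 CPM at 6 and 8 weeks, which overlapped the 4-week libraries.

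Set against WT GMP, the gene groups differed in where WT lay. In this comparison 2654 of 9602 genes differed (27.6%), 1478 higher in Flt3 at 2 weeks (15.4%) and 1176 lower (12.2%). Basophil genes were 15 of 17 higher and class II and dendritic cell genes 17 of 19, with median log2 fold changes of 3.51 and 7.36. Cd209a, Ciita and Zbtb46 had no count in WT, and with these 3 at their lower bounds the second median was 6.61. Mcpt8 was 5.66 ± 0.16 above WT and Gata2 2.77 ± 0.20 above. For 10 of the 16 basophil genes higher at 2 weeks, and for all 6 such eosinophil genes, the WT mean was also above the 4-week mean: Mcpt8 had 583, 488 and 430 CPM in WT and Prg2 2636, 1236 and 2569 CPM. For none of the 16 class II and dendritic cell genes was this so, as H2-Aa had 16.2, 12.0 and 29.9 CPM in WT. These orders of the WT and 4-week means were not counted over all genes, so the counts are descriptions. Primary granule genes were 12 of 14 lower than WT and none higher, with Mpo at 36470, 40750 and 46040 CPM in WT. Erythroid genes had a median of 0.12 against WT, and none of the 7 tested passed edgeR's or DESeq2's adjusted threshold, with 1 at an unadjusted p under 0.05.

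LSK cells sorted from the Flt3 mice at the same time points were used to see which differences were found there too. In LSK 1250 of 9892 genes differed between 2 and 4 weeks (12.6%), 816 higher (8.25%) and 434 lower (4.39%). Early response genes were 11 of 20 higher with 1 lower, class II and dendritic cell genes 18 of 20 higher and S phase genes 10 of 20 lower. Fos had 1190, 1521 and 1440 CPM at 2 weeks and 84.2, 69.7 and 128 CPM at 4 weeks in LSK (3.84 ± 0.23), and the difference between the changes in GMP and LSK was -0.11 ± 0.34 (adjusted p = 0.965). Basophil genes were 6 of 10 tested higher in LSK at lower levels, as Mcpt8 had 966, 179.6 and 294 CPM at 2 weeks and 94.7, 103 and 91.3 CPM at 4 weeks (2.30 ± 0.54). Basophil genes took 0.0559 to 0.252% of counts in the 2-week LSK libraries and 0.0236 to 0.0249% in the 4-week ones. The antibody gene Igkc, a plasma cell product, had 53140, 20790 and 68640 CPM in LSK at 2 weeks and 18.3, 10.7 and 36.1 CPM at 4 weeks. Over the 13 alternative settings run in LSK, 2 to 7 basophil genes were higher (2 after thinning, 3 with only the compared groups), 12 to 20 class II and dendritic cell genes and 9 to 13 early response genes, and 6 to 10 S phase genes were lower (6 without 2-week replicate 3). In GMP Igkc had 126, 1.99 and 95.6 CPM at 2 weeks and 8.26, 24.6 and 22.7 CPM at 4 weeks and did not pass (adjusted p = 0.213).

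The difference between the 2 changes was tested in a fit of both populations, in which 103 of 10619 genes passed (0.97%), 57 with the higher change in GMP (0.537%) and 46 with the lower (0.433%). The sample codes carry animal numbers that GMP and LSK libraries share, which this fit does not use. On the basophil list 3 of 17 genes passed, all with the larger change in GMP. Over 20 alternative settings this count was 1 to 5: it was 3 with the animal number as a block, 5 with no filter, and 1 after thinning, with only the compared groups, and without 4-week GMP replicate 2, 2-week LSK replicate 2 or 4-week LSK replicate 3. Mcpt8 changed by 3.97 ± 0.57 more in GMP than in LSK (adjusted p = 0.000669), Ccl3 by 3.43 ± 0.75 (adjusted p = 0.0248) and Lilrb4 by 3.88 ± 1.01 (adjusted p = 0.0432). Mcpt8 missed the threshold in 1 of the 20 settings (adjusted p = 0.0615 with only the compared groups), Ccl3 in 6 (up to 0.189) and Lilrb4 in 12 (up to 0.692). From the other lists Gata2 changed by 2.65 ± 0.44 more in GMP (adjusted p = 0.001) and Lat by 4.37 ± 0.57 (adjusted p = 3.96e-05). Lat had 96.1, 89.8 and 103 CPM at 2 weeks and 129, 123 and 117 CPM at 4 weeks in LSK, where it did not pass (adjusted p = 0.289). Socs2 was lower at 2 weeks in GMP but had 878, 839 and 737 CPM at 2 weeks and 889, 1094 and 1004 CPM at 4 weeks in LSK, a difference between populations of -1.69 ± 0.23 (adjusted p = 1.56e-05). For Prss34, Fcer1a and Cpa3 the test of the difference did not pass, at 1.86 ± 0.94, 0.83 ± 3.82 and 1.13 ± 0.72, with Fcer1a at 59.9, 4.12 and 10.3 CPM in LSK at 2 weeks. With the animal block none of these 3 passed either, while Prss34 and Cpa3 passed with no filter. On the class II and dendritic cell list 1 of 21 genes passed, Bst2, at -1.30 ± 0.27.

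**Figure D5:**
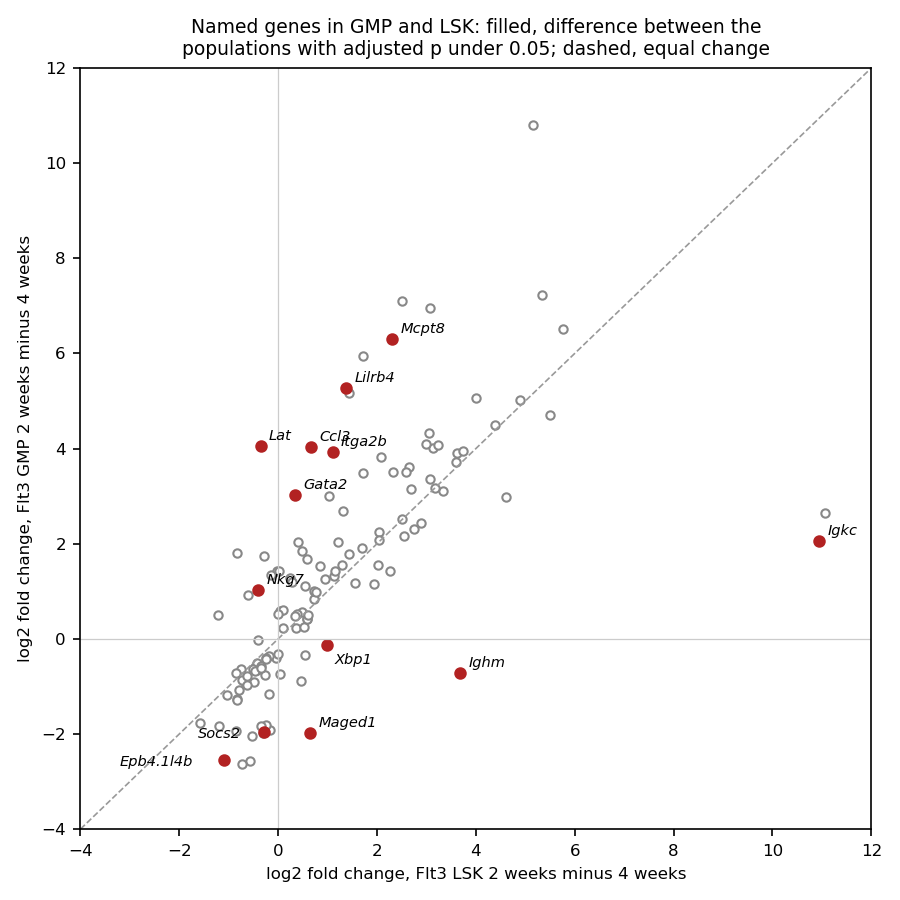
Log2 fold change at 2 weeks minus 4 weeks in Flt3 LSK (horizontal axis) and in Flt3 GMP (vertical axis) for the 129 named genes tested in both. Filled and labelled points are the 13 genes for which the difference between the populations passed at an adjusted p under 0.05, and the dashed line marks equal change. Mcpt8, Gata2 and Lat lie above the line, and Socs2 and the immunoglobulin genes Igkc and Ighm below it.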

How the data were processed

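RNA of sorted GMP and LSK was sequenced with a Takara or a SMART-Seq kit, per the labels' protocols, which do not assign the kits to samples. The deposited table holds raw counts per gene for 33924 genes. The submitters' processing notes name STAR, featureCounts and mm10, and versions, strand setting and annotation are not given in the sources used here. Groups followed the titles. Counts were tested as deposited with edgeR 4.0.16 (filterByExpr, TMM, robust quasi-likelihood F-test, Benjamini-Hochberg adjustment, threshold 0.05) in R 4.3.3 with limma 3.58.1, in 1 fit of the 14 GMP libraries above 100000 counts, 1 of the 15 Flt3 and WT LSK libraries, and 1 of all 29 for the difference between populations. Standard errors are the log2 fold change divided by the root of F. DESeq2 1.42.0 and the other alternatives of the closing section were also run. The edgeR step was tested on simulated data. Between 2 and 4 weeks in GMP it recovered 46% of 2-fold and 89% of 4-fold changes. For the difference between populations it recovered 19% and 59%, so a gene that did not pass may still differ. No 2 of 19 replicate pairs agreed within sampling noise (lowest chi-square per degree of freedom 2.35). Same-numbered 2- and 4-week libraries correlated in their deviations at -0.000201 to 0.0329, so numbers were not treated as pairs. Library totals were 572370 to 8249135 over the 14 GMP libraries, which limits genes below a few CPM. The members and the 32 gene lists (556 of 560 entries found, 12 by synonym) were chosen with earlier results of these data known. A rule named Flt3, the 12 largest rises and falls among called genes of a mean log2 CPM of at least 4 whose groups do not overlap (predicted, clone-named and sex-linked genes passed over), the basophil, mast cell and eosinophil lists and up to 4 members of each other list with the smallest p (144 genes tested). Other list members in the text were chosen by role after their values were seen. Gene starts and promoter letters come from RefSeq.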

Additional observations from a re-analysis of the deposited data

Results flagged for a closer look

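For 13 of the genes named above or by the same rule, the change from 4 to 2 weeks differed between GMP and LSK in edgeR's test of that difference, with adjusted p under 0.05 over 10619 genes. Values are the GMP log2 change minus the LSK log2 change. The change was higher in GMP for 3 of the 17 basophil genes, Mcpt8 by 3.97, Ccl3 by 3.43 and Lilrb4 by 3.88, and for Lat by 4.37, Gata2 by 2.65 and Itga2b by 2.81. Neither Lat (adjusted p = 0.289) nor Gata2 (adjusted p = 0.575) passed in LSK. Lat was at 89.8 to 103 CPM in LSK and 90.3 to 106 CPM in GMP at 2 weeks, with the populations scaled apart, and it was at 0 to 9.46 CPM in GMP at 4 weeks. Nkg7, the granule membrane protein gene, differed by 1.41, being higher at 2 weeks in GMP and lower in LSK (-0.40).

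Socs2 differed by -1.69, Epb4.1l4b by -1.44 and Maged1 by -2.63, each with the lower value at 2 weeks in GMP. Epb4.1l4b was also lower at 2 weeks in LSK (-1.11, adjusted p = 7.17e-05), while Socs2 did not pass there (adjusted p = 0.329). Maged1, an adaptor of the MAGE family, had 2.63, 5.98 and 8.10 CPM in GMP at 2 weeks and 19.8, 32.5 and 21.8 CPM at 4 weeks, while LSK had 20.9, 27.2 and 41.1 and 17.0, 17.0 and 22.3 CPM and did not pass (adjusted p = 0.21).

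The antibody genes Igkc (-8.85) and Ighm (-4.41) and Xbp1 (-1.14), a factor that plasma cells need, differed through LSK: Ighm had 2586, 2578 and 8165 CPM in LSK at 2 weeks and 408, 344 and 293 CPM at 4 weeks. The 8 plasma cell genes took 2.44 to 7.23% of counts in the 2-week LSK libraries and 0.0389 to 0.0528% in the 2-week GMP libraries. The part of those counts in the other differences between the populations was not tested.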

How the results depend on the processing

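Of 116 genes named and called between 2 and 4 weeks, 97 passed in every alternative setting in which they were tested (94 of them in all 17, 2 in 16 and 1 in 15) and 19 missed the threshold in at least 1, and no called value changed sign. The 1572 called genes became 1482 with DESeq2, 1571 with median-ratio factors, 1711 with no filter, 1594 with a filter of 5 CPM, 1273 after thinning to the smallest total, 1507 with the near-empty library, 1452 with only the compared groups and 1207 to 1321 with 1 library left out. Scaling without the basophil, mast cell and eosinophil genes gave 1593, as did scaling also without the dendritic cell and early response lists, and leaving WT out of the fit gave 1529 (both added after the data were seen). With no filter the median of all genes was 0.12 on the log2 scale. Leaving out 1 library gave 1678 to 2192 genes against 6 and 8 weeks and 2132 to 2282 against WT.

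In LSK the 1250 genes fell to 578 after thinning and were 688 to 1146 with 1 library left out, 688 without 2-week replicate 3 and 818 without 4-week replicate 2. For the difference between GMP and LSK 103 genes became 182 with no filter, 33 after thinning, 134 with DESeq2 and 65 to 91 with 1 library left out, 65 without 4-week LSK replicate 3 and 67 without 4-week GMP replicate 2. The cause of these shifts was not tested.

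With the replicate number as a block 1440 genes passed between 2 and 4 weeks, 2031 against 6 and 8 weeks, 2497 against WT, 1061 in LSK and 102 for the difference between populations. The labels give the numbers no shared animal or day, and 3 of 6 libraries correlated best with the library of their own number. With the animal number of the sample codes as a block, 150 genes passed for the difference between GMP and LSK, and deviations of the 14 such pairs correlated at -0.056 to 0.233.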

Other observations

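Between 2 and 4 weeks in GMP, none of 16 tested cholesterol synthesis genes passed with edgeR or DESeq2, and none had an unadjusted p under 0.05. Of 14 tested glycolysis genes 3 were higher and 1 lower (10.5% and 5.86% of all genes were). Pfkp, a phosphofructokinase, was higher by 1.27 ± 0.18, while Gapdh and Ldha had differences of -0.15 and 0.17. Without 2-week replicate 3 the other 3 called glycolysis genes, Gpi1, Slc2a3 and Pfkl, did not pass (adjusted p = 0.0743, 0.166 and 0.13). Over the 17 alternative settings 1 to 4 glycolysis genes were higher and 0 to 1 lower, with 1 higher without 4-week replicate 2. Gpi1 and Slc2a3 did not pass without 4-week replicate 2 either (0.0642 and 0.0749), Gpi1 without 2-week replicate 1 (0.183) or 4-week replicate 3 (0.105), Slc2a3 without 4-week replicate 1 (0.0677), nor Pfkl without 2-week replicate 2 (0.0642) or 4-week replicate 1 (0.12) or 3 (0.0955). Of 9 tested p53 target genes Pmaip1 was higher and Cdkn1a, the inhibitor of the cell cycle kinases, lower, with 26.9, 19.9 and 25.0 CPM at 2 weeks, 62.8, 67.2 and 52.0 CPM at 4 weeks and 17.3, 15.6 and 18.5 CPM in WT (-1.29 ± 0.25). Of 11 tested stem cell genes 3 were higher (Gata2, Egr1 and Txnip, at 1.43 ± 0.26 for the last) and 2 lower (Cd34 and Mycn). Ighm, the antibody heavy chain gene on the lymphoid list, was lower, at -0.72 ± 0.17.

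Genes of marrow macrophages that recycle iron were 2 of 8 higher (10.5% of all genes were). These were Vcam1 with 23.0, 19.9 and 12.1 CPM against 13.2, 1.12 and 2.84 CPM and Slc40a1 with 10.5, 15.9 and 9.33 CPM against 0, 1.12 and 5.67 CPM. Vcam1 missed the threshold in 7 of 17 alternative settings and Slc40a1 in 6 of 16. Igj, the joining chain of antibodies, had 46.7, 7.97 and 17.0 CPM at 2 weeks against 1.65, 8.96 and 0.946 CPM and did not pass without 2-week replicate 1 (adjusted p = 0.127) or 4-week replicate 3 (0.0559). The summed level of 2 stromal genes was 0 to 3.99 CPM at 2 weeks and 0 at 4 weeks, that of 2 B cell genes 0 to 0.686 CPM and 0. Of 9 tested mitochondrially encoded genes mt-Co1 and mt-Nd1 were higher (10.5% of all genes were). The threshold was missed by mt-Nd1 in 12 of 17 alternative settings and by mt-Co1 in 5 of 17 (adjusted p up to 0.0825). Over the settings 0 to 4 of the mitochondrially encoded genes were higher.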
